A study of Mus musculus with 4 samples.

Results

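The cytosolic ribosomal protein genes encode the protein part of the ribosome that translates nuclear messages. They were taken by symbol: Rpl or Rps followed by a digit, plus Rplp0, Rplp1, Rplp2 and Rpsa, without symbols that hold -ps (pseudogenes) and without the Rps6k kinases. This gave 93 of the 55385 genes of the matrix. The symbol rule itself uses no measured value. The symbol rule also takes Rps19bp1, which encodes a protein that binds Rps19 and is not a ribosomal protein, and a set of paralogues and retrocopies such as Rpl22l1, Rps27l, Rps27rt and Rpl6l.

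Spleen cells of steady-state C57BL6 animals, wild type and with no other allele or agent, were profiled by CITE-seq, which reads RNA and barcoded surface antibodies (160, plus 9 isotype controls) in the same cell. Dendritic cells (DCs), taken from 2 mice by depleting other cells, were sorted as conventional DCs of type 1 (cDC1) or type 2 (cDC2) and loaded with 10000 live cells sorted at random. Replicates 1 and 2 are labelled, but not whether they are separate mice. The p-values here reflect how differences between cell classes varied between 2 libraries, pooled over the classes, and this spread may be technical.

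A ribosome joins a small subunit (Rps proteins) that reads the message and a large subunit (Rpl proteins) that forms the peptide bond, and the acidic stalk proteins Rplp0, Rplp1 and Rplp2 recruit the elongation factors. Many of these messages start with a terminal oligopyrimidine (TOP) tract, through which mTORC1 and Larp1 control their translation and stability. Maturing DCs stop taking up antigen, raise Ccr7 and move to the T cell areas of lymphoid tissue.

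RefSeq start windows are shown for Rps27 with Rps27l, for Rpl22 with Rpl22l1, and for Rpl12. Rpl12 is a large-subunit gene with one of the largest differences between lymphocytes. Another annotated start of Rpl22 and the windows of Rpl36a and Rpl36al held no tract, as defined next, and are not shown. Each window covers 20 bases before to 10 bases after an annotated start in GRCm38.p6, on the sense strand, and capitals mark the longest TOP-like tract, a C followed by at least 5 letters that are C or T.
Rps27 (chr3:90213639-90213668, minus strand): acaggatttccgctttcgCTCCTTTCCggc
Rps27l, first start (chr9:66946066-66946095, plus strand): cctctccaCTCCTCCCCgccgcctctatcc
Rps27l, second start (chr9:66946393-66946422, plus strand): agctcaccatgggcttcagggtcactaacg
Rpl22 (chr4:152324416-152324445, plus strand): atcagcgctgcttctggaatgttccagctc
Rpl22l1 (chr3:28805488-28805517, plus strand): cgtgcgtgcggcgcaagcccgttCTCTTCC
Rpl12 (chr2:32961692-32961721, plus strand): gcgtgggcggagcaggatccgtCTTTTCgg
Of 68 members with a promoter entry, 40 (58.8%) held such a tract in a window, against 26.3% of 27025 genes with an entry and 27.3% of 11 proteasome genes. Among translation factors and other known TOP messages the share was 50% of 14. Rps27 and the first start of Rps27l each held a 9-base tract, and the second start of Rps27l had none. The Rps27 tract spanned the annotated start, whereas the Rps27l tract ended upstream of it, outside the annotated transcript. A match says that these letters are in the window, and a tract was not tested as a regulatory site.

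Cells were gated on surface antibody and RNA UMIs (unique molecular identifiers, the counted molecules). cDC1 had at least 3 XCR1 and at most 2 CD172a antibody UMIs. Within them, immature cDC1 had no Ccr7 or Fscn1 UMI, at most 1 Egr3 UMI and at most 2 UMIs summed over cell cycle genes. Egr3-high cDC1 had at least 3 Egr3 UMIs and cycling cDC1 at least 6 cell cycle UMIs, both without Ccr7 or Fscn1. Intermediate cDC1 had at least 3 Ccr7 and at most 3 Fscn1 UMIs, and late cDC1 at least 10 Ccr7 and at least 4 Fscn1 UMIs. The numbers of cells in libraries 1 and 2 were 2113 and 2328 immature, 1201 and 2811 Egr3-high, 789 and 943 cycling, 147 and 169 intermediate and 81 and 97 late cDC1. There were also 1158 and 1249 cDC2, 40 and 28 mature cDC2, 126 and 147 B, 797 and 676 T and 260 and 365 NK cells. The cDC1 gate held 5485 and 8112 cells, of which 1154 and 1764 fell in none of these steps.

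The libraries held 99617992 and 129565040 RNA UMIs, with 12166 and 15976 cells kept, and shared 61 barcode sequences. Members took up 22.1% and 21.9% of the RNA UMIs of all kept cells. Of the 93 members, 91 had at least 1 UMI in the gated classes and 87 passed the filter on low counts and were tested. Rps12l1 and Rpl10l had no UMI, which allows up to 3, and Rpl3l (9 UMIs), Rpl39l (37), Rpl32l (74) and Rps3a2 (253) were below the filter. Rpl3l is known from striated muscle and Rpl10l and Rpl39l from testis. Summed over 9 mature DC markers, late cDC1 had 12661 and 12348 CPM (counts scaled to 1e+06 RNA UMIs of a class and library). Intermediate cDC1 had 4370 and 4517 CPM, and immature cDC1 147.5 and 169.5 CPM. The markers include Ccr7 and Fscn1, which set the gates of these steps, so part of this order was fixed by the gates.

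Members made up a falling share of the RNA along cDC1 maturation. The share was 23.7% and 23.4% in immature cDC1 of libraries 1 and 2, 20.1% and 20.7% in intermediate cDC1, and 16.8% and 16.5% in late cDC1. The libraries of 1 step did not overlap those of the next. The late share was 0.705 times the immature share, a mean log2 ratio of -0.50 ± 0.0046 (SD, n = 2 libraries), and -0.21 ± 0.042 for intermediate over immature. With 2 libraries against 2, an exact permutation test cannot go below p = 0.333, so the shares are given without a test. Their widest 95% Wilson interval was ± 0.201 percentage points, which covers counting error only.

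The median cell fell from 2002 and 1726 ribosomal protein UMIs in immature cDC1 to 965 and 919 in late cDC1, while its other RNA UMIs were 6428 and 5575.5 against 5133 and 5151. Late cells of low depth had the lowest shares: over 3 equal bins of cells by RNA UMIs, the share was 12.0%, 15.4% and 19.5% in library 1 and 12.7%, 15.9% and 18.3% in library 2. In the same bins of immature cDC1 it stayed between 23.0% and 24.0%. The lowest bin of intermediate cDC1 had 15.4% and 18.3%, and the upper bins 20.7% to 21.3%. The late gate asks for 10 Ccr7 UMIs, so shallow cells enter it only with a high Ccr7 fraction, and the part of this in the share was not tested.

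**Figure D1:**
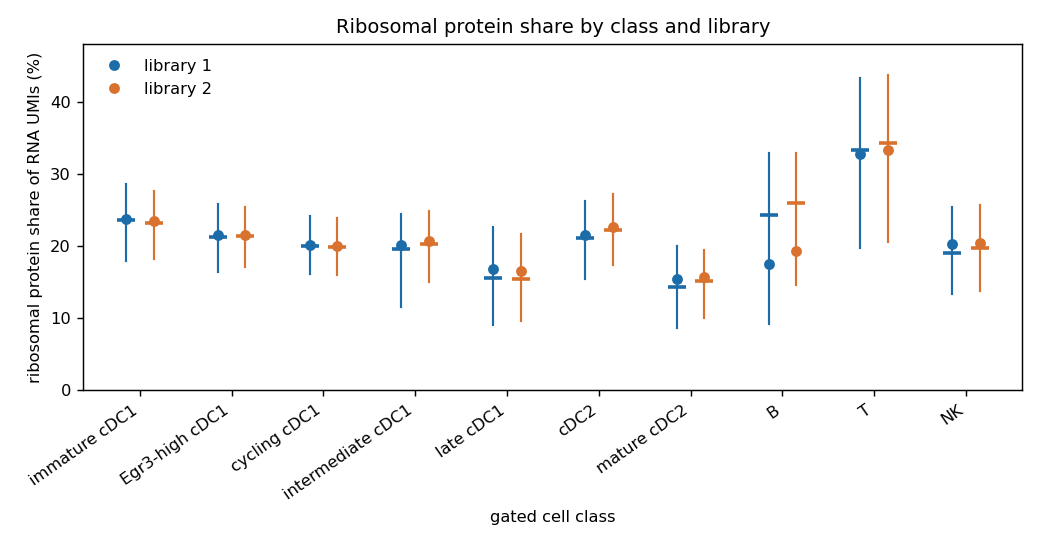
Share of RNA UMIs (%) from ribosomal protein genes in each gated class. Circles are the summed share of a library (blue library 1, orange library 2), dashes the median cell and lines the 10th to 90th percentile of cells; late cDC1 and mature cDC2 sit near 15% to 17%, and T cells near 33%.

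Shares also differed among the other cDC1 states and the other cells. Egr3-high cDC1 had 21.5% and 21.6%, and cycling cDC1 20.1% and 19.99%, all below both immature values. When 10 Egr3 UMIs were asked for, a gate added after seeing the data, the share was 20.7% and 20.5% in 161 and 422 cells. cDC2 had 21.5% and 22.5%, and mature cDC2, gated on Ccr7 and Fscn1 like late cDC1, 15.4% and 15.6%. NK cells had 20.2% and 20.4%, and T cells, with the highest share, 32.7% and 33.4%. T cells were 1.40 times immature cDC1 and 1.63 times NK cells. These shares also changed with depth. The lowest and highest depth bins of Egr3-high cDC1 had 19.9% and 22.2% in library 1 and 20.4% and 21.8% in library 2. In library 1 these bins had 19.2% and 22.8% in cDC2, 16.3% and 22.5% in NK cells and 27.7% and 33.6% in T cells. B cells went the other way (24.8% and 13.8%), and cycling cDC1 had 20.1% in both bins. The part of depth in the differences between classes was not tested.

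B cells had 17.5% and 19.2%, but their median cell had 24.3% and 25.9%. The B gate also took cells with plasma cell RNA, since 4 plasma cell markers summed to 23694 and 18247 CPM in B cells and to no more than 57.9 CPM in any other class. Without cells holding at least 5 UMIs of Jchain, Mzb1, Xbp1 and Sdc1, a filter added after seeing the data, the share was 27.2% and 26.8% in 106 and 131 cells. The mean log2 ratio to immature cDC1 then turned from -0.36 to 0.20.

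Per cell, cycling cDC1 held the most ribosomal protein UMIs (medians 2676 and 2523) and also the most other RNA (10741 and 10023). T cells held 1029 and 977.5 beside 1999 and 1852 other UMIs, and NK cells 416 and 473 beside 1808 and 1795. The other RNA of T and NK cells was thus closer than their ribosomal protein RNA.

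**Figure D2:**
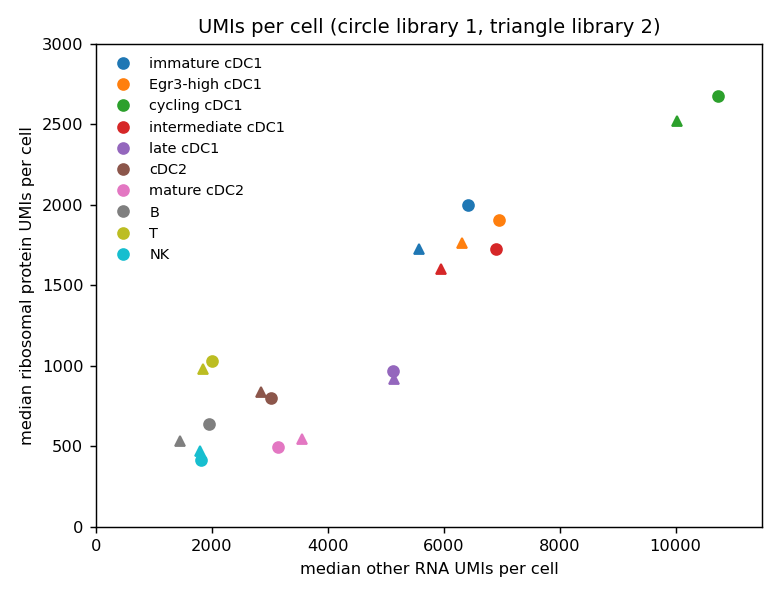
Median ribosomal protein UMIs per cell against median other RNA UMIs per cell, 1 point per class and library (circles library 1, triangles library 2). T and NK cells share their place on the horizontal axis, with 1029 and 977.5 against 416 and 473 on the vertical axis, and late cDC1 lies below immature cDC1 at 965 and 919.

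Single members were tested with edgeR's quasi-likelihood test on UMIs summed per class and library, with library as a block, TMM scaling and Benjamini-Hochberg adjustment over 10994 genes (threshold 0.05). All log2 fold changes below are from this fit unless stated, with their standard error (SE). In late against immature cDC1, 81 of 87 members fell and 1 rose. Of all tested genes, 24.8% were lower and 20.6% higher. The median member was at -0.50 and the median gene at -0.23 on the log2 scale, and the gap between them lay at -0.27 in this fit. In CPM, 82 of 87 members were highest in immature, lower in intermediate and lowest in late cDC1 in both libraries, an order that 22.1% of all tested genes had.

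Rps27l was the member that rose. It encodes a close paralogue of the small-subunit protein Rps27 and is known in human cells as a target of p53. Its level was 341.5 and 324.4 CPM in immature, 520.4 and 489.6 CPM in intermediate and 914.8 and 848.9 CPM in late cDC1. The steps did not overlap, and no other member was ordered upward in both libraries, as 13.4% of tested genes were. The log2 fold change was 0.71 ± 0.09 (SE) from immature to intermediate cDC1 (edgeR adjusted p = 1.4e-08). From immature to late cDC1 it was 1.46 ± 0.09 (edgeR adjusted p = 1.3e-16).

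The increase of Rps27l was spread over cells. The median late cell had 6 and 5 Rps27l UMIs against 2 and 2 in immature cDC1, and the cell with the most held 3.46% and 3.96% of the late UMIs. Rps27 itself had 1956 and 1839 CPM in immature and 1659 and 1508 CPM in late cDC1, which did not overlap, and fell by 0.21 on the log2 scale (edgeR adjusted p = 0.0093). Its retrocopy Rps27rt, whose reads may be shared with Rps27, had 63.3 and 59.8 CPM and then 49.3 and 45.9 CPM (log2 -0.32, edgeR adjusted p = 0.16).

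Across the other classes Rps27l stayed lower than in late cDC1. It had 364.8 and 337.1 CPM in Egr3-high and 455.9 and 411.4 CPM in cycling cDC1. In cDC2 it had 249.2 and 251.7 CPM, in mature cDC2 531.0 and 680.2 CPM. B cells had 230.6 and 225.0 CPM, T cells 199.6 and 208.2 CPM, and NK cells 274.3 and 227.0 CPM. The lymphocyte and cDC2 values all lay below both immature cDC1 values, and T cells were lower than immature cDC1 by a log2 fold change of -0.89 ± 0.09 (edgeR adjusted p = 3.1e-11).

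**Figure D3:**
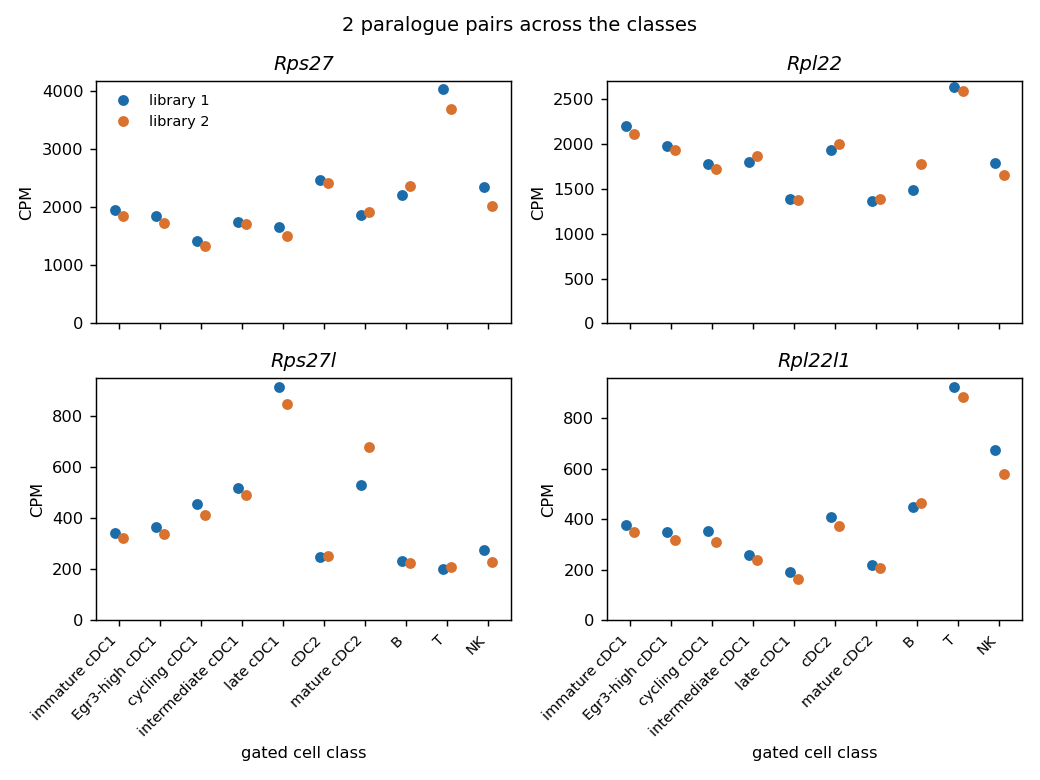
CPM of Rps27 and its paralogue Rps27l (left) and of Rpl22 and its paralogue Rpl22l1 (right) in each class, 1 point per library, each panel with its own axis from 0. Rps27l is highest in late cDC1 (914.8 and 848.9 CPM), where Rpl22l1 is lowest (189.99 and 165.2 CPM), and Rpl22l1 is highest in T cells (923.2 and 886.7 CPM).

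The members that fell furthest from immature to late cDC1 were paralogues and the binding protein. Rps19bp1 had 34.8 and 33.7 CPM in immature and 8.80 and 7.65 CPM in late cDC1, from 10 late UMIs in all. Its log2 fold change was -2.01 ± 0.36 (edgeR adjusted p = 1.1e-05), and the ratio of counts was 0.239 with a 95% interval of 0.114 to 0.441. Rpl6l had 2 late UMIs against 312 immature ones, a ratio of 0.176 (0.0213 to 0.642). Rpl36al, an autosomal copy of the X-linked Rpl36a, had 341.2 and 293.4 CPM in immature and 130.2 and 137.7 CPM in late cDC1 (log2 -1.18 ± 0.11, edgeR adjusted p = 3.6e-11). Rpl36a had 929.8 and 837.9 CPM, then 555.9 and 608.8 CPM (log2 -0.54). Rpl22l1 fell by 0.98 and Rpl22, whose loss in mice blocks development of αβ T cells, fell by 0.59. Rpl7l1 fell by 0.83 and its namesake Rpl7 by 0.50.

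Among core proteins of the small subunit, Rps6, the substrate of the S6 kinases, had 958.9 and 899.9 CPM in immature and 584.0 and 527.7 CPM in late cDC1 (log2 -0.69). In the large subunit Rpl8 had 3980 and 4153 CPM, then 2160 and 2209 CPM (log2 -0.84), and Rpl3, close to the peptidyl transferase centre, fell by 0.79. These late values lie below every immature value of the same gene. Among the members with the most UMIs in immature cDC1, Rpl32 fell by 0.65, Rps24 by 0.24 and Rplp1 by 0.19. Rps24 had 6242 and 5771 CPM in immature and 5026 and 4762 CPM in late cDC1.

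At the other end, Rps19, a gene mutated in Diamond-Blackfan anaemia in humans, had 2208 and 2110 CPM in immature and 2007 and 1800 CPM in late cDC1 (log2 -0.13, edgeR adjusted p = 0.13). Rpl19 had 5005 and 5109 CPM, then 4565 and 4416 CPM (log2 -0.12), which also missed the threshold. The stalk members moved little: Rplp1 fell by 0.19, Rplp2 by 0.24 and Rplp0 by 0.33. Rpsa, a small-subunit protein also known as a laminin receptor, fell by 0.41. The members not past the threshold were Rps4l, Rps27rt, Rps19, Rpl19 and Rps3a3.

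In this fit, most of the decrease came after the intermediate step. The log2 share ratios of the steps were closer, at -0.21 for intermediate over immature and -0.29 for late over intermediate cDC1. From intermediate to late cDC1, 78 of 87 members fell and 1 rose (11.2% and 10.3% of all genes), with a median member of -0.36 and a median gene of -0.05. Rps19bp1 (log2 -1.67), Rpl36al (-0.66) and Rpl8 (-0.64) were among the lowest, and Rps27l rose by 0.74. From immature to intermediate cDC1, 18 fell and 1 rose, against 18.7% lower and 16.2% higher of all genes, and the median member and the median gene were both at -0.12. Rpl36al (log2 -0.52), Rpl22l1 (-0.43), Rpl15 and Rps26 (both -0.31) and Rpl7a (-0.29) fell furthest at this step. The count of members past the threshold there was 6 to 64 under other settings. Of these members 1 was higher in each setting, except with ribosomal protein UMIs as library size, with 4 higher. Only this last setting has its shares of all genes given, below. Erythroid markers summed to 1515 and 594.0 CPM in intermediate against 187.4 and 275.0 CPM in immature cDC1, and red pulp macrophage markers to 214.6 and 217.2 CPM in late against 37.6 and 52.5 CPM in immature cDC1. Their part in the members' values was not tested.

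**Figure D4:**
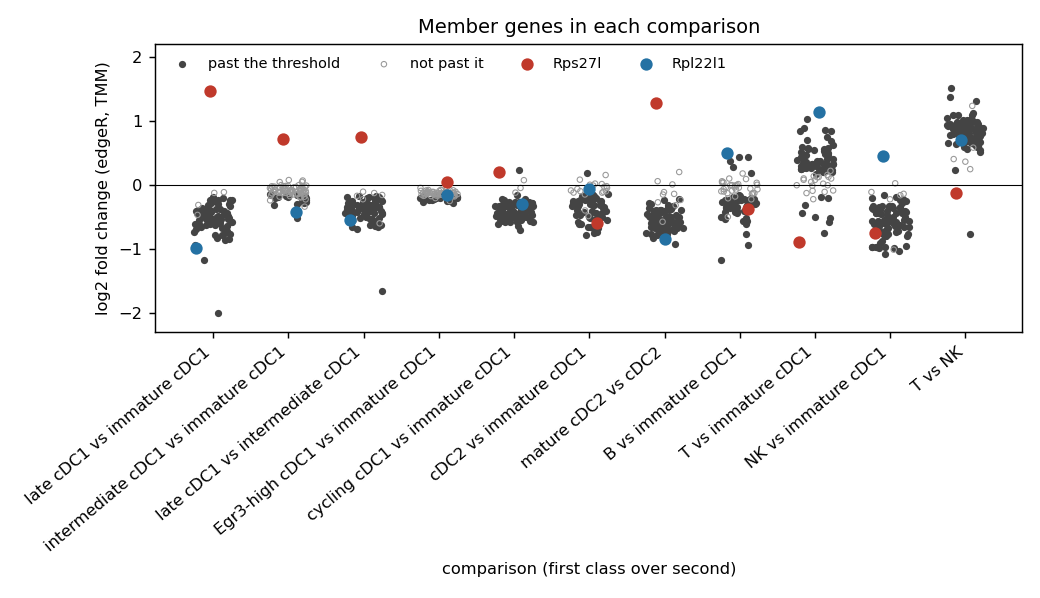
Log2 fold change (edgeR, TMM) of each tested member with a standard error up to 0.5 in 11 comparisons, 1 point per gene, spread sideways within a comparison (filled past the threshold, open not past it; Rps27l red and Rpl22l1 blue whether past it or not). Rps27l stands at 1.46 in late and 0.71 in intermediate against immature cDC1 and at 1.28 in mature against other cDC2, where the median members are at -0.50, -0.12 and -0.51.

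The cDC2 lineage gave similar sizes. In mature against other cDC2, 72 of 87 members fell and Rps27l alone rose, against 8.73% lower and 8.8% higher of all genes. The median member was at -0.51 and the median gene at -0.28. Rps27l rose by 1.28 ± 0.13 on the log2 scale (edgeR adjusted p = 9.1e-10). Its median cell had 1 and 1.5 UMIs in mature cDC2 against 1 and 1 in cDC2, and the cell with the most held 13.4% and 21.2% of the mature UMIs in these 40 and 28 cells. Rpl22l1 (log2 -0.85), Rpl13a (-0.84) and Rpl4 (-0.77) were among the lowest. Rps19 had 2378 and 2442 CPM in cDC2 and 2414 and 2481 CPM in mature cDC2.

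Whether maturation moved a member by a different amount in cDC1 and cDC2 was tested as an interaction. edgeR called 0 of 87 members (4.06% of all genes higher and 1.46% lower), with 9 at an unadjusted p under 0.05, and DESeq2 called 1. The count was 6, all lower, with RNA gates on scaled UMIs and 7, all higher, with 10 Egr3 UMIs. It was 0 or 1 in every other setting, so neither the count nor its direction held across settings. Asking for 10 Egr3 UMIs changed no cell of the classes compared here, only the fit shared by all classes. Rpsa was at -0.29 (edgeR adjusted p = 0.064) and Rps27l at 0.18 (edgeR adjusted p = 0.63). The mature cDC2 sums held only 182674 and 124972 UMIs, the lowest of any class.

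Cycling cDC1 had lower members beside more RNA per cell. In cycling against immature cDC1, 82 of 87 members fell and 2 rose, against 28% lower and 19.8% higher of all genes, with a median of -0.41 for members and -0.08 for genes. Rpl7l1, a paralogue of Rpl7, rose from 79.0 and 75.5 CPM to 108.3 and 96.4 CPM (log2 0.23 ± 0.06, edgeR adjusted p = 0.0021), and Rps27l rose by 0.21 (edgeR adjusted p = 0.03). Rps27 had 1414 and 1337 CPM in cycling cDC1, below the immature values, and fell by 0.64. Rps27rt (-0.71), Rpl17 (-0.62) and Rps9 (-0.58) fell with it. Erythroid markers summed to 830.1 and 896.1 CPM and neutrophil markers to 369.2 and 405.1 CPM in cycling cDC1, against 32.2 and 27.1 CPM for neutrophil markers in immature cDC1, and their part was not tested.

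In Egr3-high against immature cDC1 the changes were small. Of 87 members, 33 fell and 0 rose (10.3% of all genes in each direction), and 62 had an unadjusted p under 0.05 in edgeR. DESeq2 called 36, all lower, and its share of all genes is not given. The edgeR calls ranged from -0.29 to -0.16 on the log2 scale. Rps19bp1 (-0.29), Rpl7l1 (-0.27), Rpl24 (-0.26), Rpl36al (-0.25) and Rps4l (-0.24) were lowest. The number of calls was 0 with a stricter antibody gate and 64 with RNA gates on scaled UMIs, so the count depends on the gate, while the median member stayed between -0.24 and -0.13 in every setting that scales by all genes.

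Between lineages, cDC2 differed from immature cDC1 by gene. In cDC2, 66 of 87 members were lower and 1 was higher (28.6% and 23.9% of all genes), with a median of -0.26 for members and -0.05 for genes. Scaling by total RNA UMIs gave 32 lower and 9 higher (shares of all genes not given for this scaling). Rps27 was the higher one, at 2472 and 2421 CPM against 1956 and 1839 CPM (log2 0.18 ± 0.06, edgeR adjusted p = 0.012). Rpl28 had 2626 and 2776 CPM in cDC2 and 4132 and 4089 CPM in immature cDC1 (log2 -0.79). Rpl36al (-0.76), Rps20 and Rpl13a (both -0.68) were also lower.

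In T cells against immature cDC1, 58 of 87 members were higher and 9 lower (37% and 28.5% of all genes), with a median of 0.29 for members and 0.13 for genes. Without the filter on low counts the split was 24 higher and 23 lower (shares of all genes not given for this setting), with the median member at 0.01. Rpl22l1 had 923.2 and 886.7 CPM in T cells against 376.4 and 350.2 CPM in immature cDC1 (log2 1.14 ± 0.07, edgeR adjusted p = 2.2e-16). Rpl22 had 2642 and 2599 CPM against 2209 and 2115 CPM, at a log2 of 0.10 that missed the threshold (edgeR adjusted p = 0.18). Rpl12 had 8056 and 8541 CPM against 3496 and 3675 CPM (log2 1.03). Rps15a (0.85), Rps27 (0.84) and Rps24 (0.83) followed. Rps27l (-0.89), Rps4l (-0.75), Rpl7l1 (-0.58), Rpl36al (-0.52) and the X-linked Rpl10 (-0.50) were lower. Neutrophil markers summed to 1281 CPM in T cells of library 1 and 20.05 CPM in library 2, and the T cell shares of the libraries were 32.7% and 33.4%.

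In NK cells against immature cDC1, 79 of 87 members were lower and 1 was higher (25.4% and 26.8% of all genes), with a median of -0.56 for members and 0.00 for genes. Scaling by total RNA UMIs gave 45 lower and 5 higher (shares of all genes not given for this scaling) and moved the median gene to 0.33. Rpl22l1 was the higher one, at 673.6 and 580.0 CPM (log2 0.44 ± 0.08, edgeR adjusted p = 9.4e-06). Rpl28 (-1.08), Rps29 (-0.99), Rps19 (-0.98) and Rps20 (-0.98) were among the lowest.

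Set directly against each other, T cells had 79 of 87 members higher than NK cells and 1 lower, against 10.7% higher and 9.09% lower of all genes. The median member was at 0.81 and the median gene at 0.05. Rps19 had 3540 and 3482 CPM in T and 1353 and 1405 CPM in NK cells (log2 1.504 ± 0.07, edgeR adjusted p = 3.3e-19), and Rpl12 (1.38), Rps20 (1.32), Rpl36a (1.12) and Rpl35 (1.10) followed. Rps4l, a paralogue of the X-linked Rps4x, was the lower one, at 26.2 and 25.5 CPM in T and 48.3 and 51.0 CPM in NK cells (log2 -0.77 ± 0.23, edgeR adjusted p = 0.013). Rps4x went the other way (0.86).

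In B cells against immature cDC1, 47 of 87 members were lower and 6 higher (17.9% and 17.6% of all genes), with a median of -0.22 for members and -0.01 for genes. RLE scaling gave 24 lower and 9 higher (shares of all genes not given for this or the next setting). Without plasma cells the split was 45 lower and 8 higher, with the median member at -0.21 and the median gene at -0.09. The share of RNA UMIs of these same cells, given above, was higher than in immature cDC1. The direction between B cells and immature cDC1 thus depended on the measure. Rps4l (log2 -1.18), Rpl13a (-0.77), Rpl14 (-0.62) and Rps6 (-0.57) were among the lowest. Rpl22l1 (447.7 and 465.2 CPM, log2 0.50), Rps27rt and Rps27 (both 0.44), Rps24 (0.37), Rpl12 (0.28) and Rps15a (0.18) were higher.

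To see the makeup of the ribosomal protein RNA itself, members were also tested with their own summed UMIs as library size. On this scale 15 members were higher and 21 lower in late against immature cDC1 (28.3% and 12% of all genes), and 81 of 87 lay within 0.5 on the log2 scale. Rps27l was at 1.91. Late against intermediate cDC1 had 9 higher and 11 lower (17% and 4% of all genes), and Rps27l was at 1.40. Against immature cDC1, intermediate cDC1 had 4 higher and 6 lower (17.2% and 12.3%), Egr3-high cDC1 1 and 0 (20.3% and 1.77%), and cycling cDC1 12 and 10 (47.8% and 4.49%). cDC2 had 21 higher and 25 lower (36.8% and 13.9%), and mature against other cDC2 10 and 12 (12.5% and 2.8%). B cells had 22 and 19 (20.9% and 12.7%), T cells 24 and 29 (24.7% and 38.3%), and NK cells 29 and 22 (44.1% and 12.5%). T against NK cells gave 11 and 22 (2.25% and 49.4%). In the interaction 0 were higher and 1 lower (3.6% and 1.51%). A share of all genes on this scale moves with the members' own share of the RNA. Members within 0.5 were fewest in T cells, at 72 of 87.

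Genes that work with the ribosome were described from lists of other genes. Ribosome biogenesis factors had a lower median than the members in late cDC1: 33 of 37 fell and 0 rose against immature cDC1, with a median of -1.86. Of all tested genes, 24.8% fell and 20.6% rose in late cDC1. Rrs1, a factor of large-subunit assembly, had 22.0 and 21.5 CPM in immature and 3.52 and 1.53 CPM in late cDC1 (log2 -3.08 ± 0.59). The late sums held 568448 and 653774 UMIs, so these late Rrs1 values rest on very few UMIs. In cycling cDC1 14 rose and 2 fell (19.8% and 28% of all genes), with a median of 0.13, where 82 members fell. Nop56, a core protein of box C/D snoRNPs, had 34.03 and 29.9 CPM in immature and 68.2 and 64.8 CPM in cycling cDC1. Of 77 tested mitochondrial ribosomal protein genes, 62 fell and 3 rose in late cDC1 (median -1.05), and 27 rose and 7 fell in cycling cDC1. Mrpl42, of the large mitochondrial subunit, was among those that fell, with 222.1 and 218.0 CPM in immature and 22.9 and 48.9 CPM in late cDC1. Mrpl14, of the same subunit, was one of the 3 exceptions that rose, with 103.2 and 106.3 CPM, then 297.3 and 258.5 CPM.

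Translation factors and other TOP messages were close to the members: 16 of 20 fell and 1 rose in late cDC1 (24.8% and 20.6% of all genes), with a median of -0.60. The one that rose was Eif4a2, an RNA helicase of the eIF4F complex, with 175.5 and 179.4 CPM in immature and 364.1 and 257.0 CPM in late cDC1. Rack1 (log2 -0.66) and Fau (-0.21), ribosomal proteins with other names, fell. Of 21 tested genes that control translation by growth signals, 4 rose and 8 fell, beside 20.6% higher and 24.8% lower of all genes. Tsc1, one of the 4, an inhibitor of mTORC1, had 5.30 and 5.41 CPM in immature and 19.4 and 56.6 CPM in late cDC1 (log2 2.89 ± 0.32). Its late values rest on few UMIs and lay far apart between the libraries. Mycl had 136.2 and 125.7 CPM, then 26.4 and 32.1 CPM. The 20S proteasome, a complex outside translation, had 3 of 14 genes higher and 3 lower, near the 20.6% and 24.8% of all genes. Its median was 0.00 beside -0.23 for all genes. In T against NK cells, 26 of 37 biogenesis factors and 16 of 20 translation factors were higher and 0 of either list lower (10.7% and 9.09% of all genes).

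**Figure D5:**
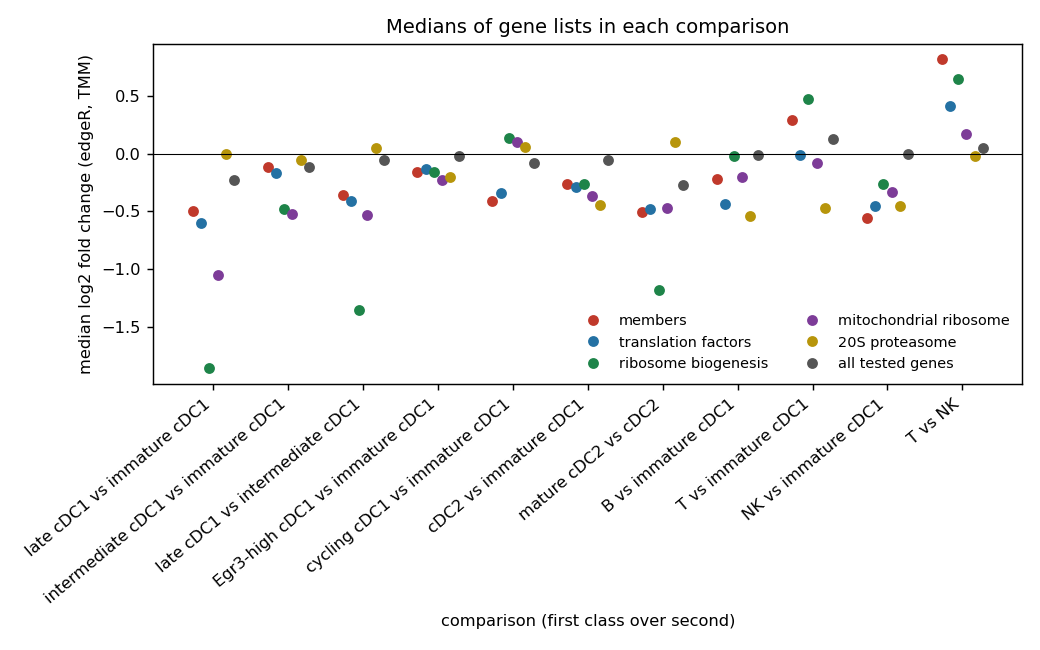
Median log2 fold change (edgeR, TMM) of the members, 4 other gene lists and all tested genes in 11 comparisons. In late against immature cDC1 the medians are -0.50 for members, -0.60 for translation factors, -1.05 for mitochondrial ribosomal proteins, -1.86 for ribosome biogenesis and -0.23 for all genes; in cycling cDC1 biogenesis is at 0.13 and members at -0.41.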

How the data were processed

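Raw UMI counts of genes and antibodies, whole numbers without normalization, were deposited in a single matrix of 2 aggregated libraries, for which the headers name Cell Ranger 3.1.0. The submitters' processing notes also name STAR, Seurat 3.1.4 and mm10. The sources used here do not give whether aggregation equalised depth. Libraries are numbered by barcode suffix. Cells needed 500 genes, 1000 RNA UMIs and a mitochondrial share under 10%. Scrublet in scanpy 1.11.5 marked 546 (4.30%) and 1064 (6.24%) doublets, which were removed.

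Counts were summed per class and library (124972 to 23235388 UMIs) and tested with edgeR 4.0.16 in R 4.3.3 over all 10 classes, with 27 gate genes left out of the tests. Library was a block, since all classes of a library were processed together and are paired by it. The fit was run on simulated counts that share a mean profile across classes, apart from genes changed in late cDC1. These counts lack the class differences of the data, so they check the procedure and not the calls made here. Members and gene lists were chosen with earlier results of these data known. Named members were, per comparison, the 5 highest and 5 lowest past the threshold with the same sign in both libraries, the 5 with the most UMIs in immature cDC1, the paralogues and their namesakes, and the stalk proteins, Rpsa and Rps6. Some of these are not reported here. Others were chosen after their values were seen: Rpl19, Rpl6l, Rps3a3 and members below the filter. DESeq2 1.42.0, other scalings, filters and gates were alternatives. Shares of all genes called are given only for the main fit and with ribosomal protein UMIs as library size. Pseudogene symbols (311) held 0.363% of the UMIs of pseudogenes and members together, so reads of near-identical copies may be split.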

Additional observations from a re-analysis of the deposited data

How the results depend on the processing

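Of the counts of members past the threshold and the log2 share ratios, 170 values under other settings stayed within 1.5 times the count or within the spread of the libraries, 52 moved and 1 turned, and for the single members 3570 kept their direction and side of the threshold, 83 passed and 225 missed it under another setting, and 17 turned. For the moved values the cause was not tested. Rps27l stayed past the threshold at 1.21 to 1.58 in late against immature cDC1 and at 0.93 to 1.33 in mature against other cDC2 in every setting with a test. With ribosomal protein UMIs as library size, 36 members passed in late and 10 in intermediate against immature cDC1, 20 in late against intermediate cDC1, 1 in Egr3-high and 22 in cycling cDC1, 22 in mature cDC2, 51 in NK cells, 33 in T against NK cells and 1 in the interaction; by construction this scale removes a shift that all members share. In intermediate against immature cDC1 the count was 11 with RLE scaling, 64 with total RNA UMIs, 11 with no filter, 11 with doublets kept, 6 with the stricter antibody gate, 33 with RNA gates on scaled UMIs and, in the gates added after seeing the data, 6 with 10 Egr3 UMIs and 9 without plasma cells. In Egr3-high cDC1 it was 8 with RLE, 18 with total UMIs, 5 with no filter, 0 with the stricter antibody gate, 64 with scaled gates and 7 without plasma cells. Total UMIs gave 41 in cDC2, 50 in NK cells and 1 in the interaction, RLE gave 33 in B cells, and the interaction had 1 with DESeq2, 6 with scaled gates, 7 with 10 Egr3 UMIs and 1 without plasma cells. The last 2 settings remove only Egr3-high cDC1 or B cells. In comparisons without these classes they act through the fit shared by all classes.

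Without the replicate block, which pairs classes of the same library, the count was 10 in intermediate and 1 in Egr3-high against immature cDC1, and it was 81 in late cDC1, 80 in cycling cDC1 and 68 in mature cDC2; it changed no other count by over 1.5 times. With 1 library left out no residual degrees of freedom remain, so members then have CPM ratios without TMM scaling and no test.

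The log2 share ratio of late to immature cDC1 was -0.51 with the stricter cell filter, -0.42 with doublets kept, -0.39 with the stricter antibody gate and -0.59 with scaled gates. Late against intermediate cDC1 had -0.21 with doublets kept and -0.22 with the stricter antibody gate. Egr3-high cDC1 had -0.11 with the stricter antibody gate, -0.17 with scaled gates and -0.19 with 10 Egr3 UMIs, and cycling cDC1 -0.25 with either of the first 2. Mature cDC2 had -0.46 with doublets kept. B cells had -0.54 with the stricter cell filter, -0.0013 with scaled gates and 0.20 without plasma cells. NK cells had -0.16 with the stricter cell filter and -0.25 with scaled gates, and T against NK cells 0.65 with the stricter cell filter, 0.65 with doublets kept and 0.72 with scaled gates. Without library 1 or 2 the ratios of late to immature cDC1 were -0.51 and -0.50.

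Single members turned as follows, as log2 fold changes against immature cDC1. With total UMIs, cDC2 had Rpl7 at 0.0093, Rps19 at 0.159 and Rps24 at 0.168, and NK cells had Rpl7 at 0.053, Rplp2 at 0.0028, Rps24 at 0.225 and Rps27 at 0.198. Rps27rt in B cells was at -0.046 with the stricter cell filter. With no filter on low counts, T cells had Rpl22 at -0.184 and Rpl3 at -0.082. Values from 1 library at a time are CPM ratios without TMM scaling, so they differ from the fit in scaling as well as in library. On these ratios Rps4l in cycling cDC1 was at -0.096 to 0.010 and Rpl7 in cDC2 at -0.025 to 0.044. In NK cells Rpl36a was at -0.089 to 0.043, Rpl39 at -0.101 to 0.037, Rplp2 at -0.031 to 0.037 and Rpl7 at 0.050 to 0.058. Late cDC1 (81 and 97 cells) and mature cDC2 (40 and 28 cells) limit the depth.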
